A study of Mus musculus with 122 samples.

Results

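Shared distal sites were the places in the mouse genome, away from gene starts, where CTCF and its germline relative CTCFL were both found by FLAG chromatin immunoprecipitation. A site was taken from the CTCF ID libraries when peaks of both replicates, merged at 1 bp, held a peak of each, on chromosomes 1 to 19 and X. Members were chosen by 2 further conditions, an overlap of at least 1 bp with a CTCFL D site made in the same way and a middle more than 1 kb from every annotated transcript start. There were 11444 such sites among 30317 CTCF ID sites (37.7%), and they made up 80.8% of all shared sites and 43.6% of distal CTCF sites. They were set beside CTCF-only distal sites, which no CTCFL D site overlapped, CTCFL-only distal sites, which no CTCF ID site overlapped, and shared sites within 1 kb of a start. The peak calls and strengths of CTCF ID and CTCFL D that chose the members are given as a description, and CTCF ID strength served once more to set sites of like strength side by side.

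CTCF binds a long DNA motif through its zinc fingers and halts the cohesin ring, of which RAD21 is a subunit, so that loops and domain boundaries form at its sites. CTCFL, also called BORIS, is normally made in the male germ line, and has similar zinc fingers but different N and C termini. In stem cells, CTCF sites away from promoters are known mainly as loop anchors and boundaries.

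All lines were E14Tg2a mouse embryonic stem cells (129/Ola, XY) in which both copies of endogenous Ctcf carried an auxin-inducible degron with eGFP and the Tir1 ligase was placed at Rosa26. A transgene of 3xFLAG, the protein under study and mRuby2 was placed at Tigre under a doxycycline promoter, and each line was clonal. Cells were untreated (U), given 500 µM IAA, which removes endogenous CTCF (I), given 1 µg/ml Dox, which induces the transgene (D), or given both (ID). The sample labels gave 24 h for treated cells of the CTCF, CTCFL, CLC and LCL lines, including Hi-C, and 48 h for CLL, LLC and the RNase experiment, while the protocol text gave 2 days for ChIP and RNA and 4 days for Hi-C. The transgenes coded for CTCF, CTCFL, CLC (CTCF termini with CTCFL fingers), LCL (CTCFL termini with CTCF fingers), CLL (CTCF N terminus, CTCFL fingers and C terminus) and LLC (CTCFL N terminus and fingers, CTCF C terminus). The FLAG antibody read the transgene only, so endogenous CTCF was present but unseen in D cells. Each ChIP group had 2 replicates, and nothing in the labels said whether these were separate cultures. Each of 12 Hi-C conditions had 2 domain lists, made by 2 methods from the same maps.

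All 7 pluripotency markers checked were read in each of the 38 RNA libraries, with a summed level between 60213 and 227083 normalized counts. The summed level of 8 markers of endoderm, mesoderm, neural, trophoblast and fibroblast cells lay between 475 and 3354. The mesoderm gene T, the neural gene Pax6 and the trophoblast gene Cdx2 were at 0 in 2, 2 and 1 libraries. Gata6, Sox17, Sox1, Col1a1 and Thy1 were above 0 in all 38, with medians of 681, 226, 188, 410 and 542. Merged peak lists ranged from 2189 to 55408 peaks for FLAG and from 163 to 22765 for RAD21, so a share of sites without a peak also reflects how short a list was, and the reads behind the lists were not used here, so the depth was unknown.

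The sequences below show the DNA under members that the results turn on, with the best match to a 20-base CTCF matrix in capitals, read 5′ to 3′ from the GRCm38 reference. The first 4 are the strongest members in CTCF D and CTCFL ID that held a match, and a further stretch is the strong member without one.
Between genes, 14495 bp from the start of Gm49554, chr16:3123031-3123090 (plus strand): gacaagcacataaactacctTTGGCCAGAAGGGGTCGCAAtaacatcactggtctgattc
Between genes, 73498 bp from Gm49326, chr12:17808776-17808835 (minus strand): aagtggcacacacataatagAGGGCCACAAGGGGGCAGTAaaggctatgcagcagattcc
Intron of Gm20388, 7981 bp from Gm42047, chr8:121841506-121841565 (minus strand): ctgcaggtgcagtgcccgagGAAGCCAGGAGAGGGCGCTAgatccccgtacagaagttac
Intron of Miga1, which codes for a mitochondrial fusion protein, whole 201-base window with 2 matches, chr3:152315714-152315914 (plus strand): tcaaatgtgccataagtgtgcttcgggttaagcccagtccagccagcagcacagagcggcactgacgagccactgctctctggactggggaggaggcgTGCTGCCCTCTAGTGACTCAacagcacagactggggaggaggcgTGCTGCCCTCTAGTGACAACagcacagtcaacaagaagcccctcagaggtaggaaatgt
Intron of Gm33838, no match, chr9:35305336-35305395 (plus strand): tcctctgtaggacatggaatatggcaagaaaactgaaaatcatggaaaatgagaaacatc

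The next 4 lie at the extremes of the difference between the proteins, 2 where CTCFL D was far stronger in rank than CTCF ID and then 2 with the opposite order.
Between genes, 1982 bp from Gm5979, chr3:88476460-88476519 (minus strand): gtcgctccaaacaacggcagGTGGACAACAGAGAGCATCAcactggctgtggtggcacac
Between genes, 22164 bp from Gm12055, chr11:22710831-22710890 (plus strand): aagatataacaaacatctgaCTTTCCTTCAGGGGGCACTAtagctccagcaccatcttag
Between genes, 96200 bp from Ebf1, which codes for a B-cell transcription factor, chr11:45008280-45008339 (minus strand): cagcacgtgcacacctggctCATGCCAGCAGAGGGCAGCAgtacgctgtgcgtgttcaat
Intron of the receptor phosphatase gene Ptprt, chr2:162512264-162512323 (minus strand): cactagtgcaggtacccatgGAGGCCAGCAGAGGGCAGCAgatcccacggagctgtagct

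The last 3 were taken from the pluripotency loci Sox2 and Nanog.
Intron of Sox2ot, the transcript that spans Sox2, chr3:34640874-34640933 (minus strand): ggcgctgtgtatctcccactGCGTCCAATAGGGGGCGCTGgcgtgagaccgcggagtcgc
Between genes, 26541 bp from Gm10420 and within 50 kb of Nanog, chr6:122669520-122669579 (plus strand): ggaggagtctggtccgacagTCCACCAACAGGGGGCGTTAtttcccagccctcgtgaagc
Between genes, 12551 bp from the Nanog start, chr6:122720136-122720195 (minus strand): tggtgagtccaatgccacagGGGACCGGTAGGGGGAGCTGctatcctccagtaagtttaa

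The motif was the first property that the rule had not used. A match stood within 100 bp of the CTCF ID summit in 9230 members (80.7%), against 76.5% of the 14786 CTCF-only distal sites and 64.5% of the 2723 shared promoter sites. At the 4239 CTCFL-only distal sites, which no CTCF ID site overlapped, all windows were centred on the CTCFL D summit, and 23.6% held a match. Control windows 1000 bp away held a match in 4.93 to 5.51% of cases, since the limit of 9.31 bits was set at the 95th percentile of such windows. The matrix was made from CTCF-only distal sites, so its fit to that class was built in. The core motif written as CC, then NNN, AG, NN and GGC without a break, searched on both strands, was present in 64.5% of members, 45.7% of CTCF-only distal sites and 4.07% of the members' control windows. The stricter form with A at the third base, all of whose matches are also matches of the first, was present in 51.8% of members and 41.2% of CTCF-only distal sites.

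Members carried a wider range of letters than CTCF-only sites. At the third base of the core motif, 77.7% of 7765 matches in members had A, against 88.8% in CTCF-only distal, 58.7% in shared promoter and 52% in CTCFL-only distal sites. T was the next letter in members at 13.2%, and was found in 6.58% of CTCF-only matches and 27.7% of CTCFL-only matches. A second match in the same window was found in 394 members (3.44%) and in 1.54% of CTCF-only distal sites. Windows that were mostly repeat sequence made up 16.1% of members and 29.9% of CTCF-only distal sites, and median GC was 50.7% and 47.3%. These shares describe the classes and were not tested.

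Nearly all members held both proteins again in the libraries that the rule had not used. CTCF D had a peak at 99.1% and 98.9% of members in replicates 1 and 2, and CTCFL ID at 97.8% and 96%. In both replicates CTCF D was found at 98.1% of members, where 96% of all CTCF ID sites had it, and CTCFL ID at 95.2%, where the background was 55.4%. CTCFL ID stood at 29% and 22.9% of CTCF-only distal sites. All 4 libraries had a peak at 10708 members, 163 had no CTCFL ID peak in either replicate, and 18 had no CTCF D peak. Since CTCFL ID carried the same protein as a library of the rule, its share repeats the choice in other cells rather than adding a new property.

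The median member ranked above most peaks for both proteins. The rule asked for both proteins in both replicates, so this follows in part from the choice. The median MACS fold enrichment over background was 8.50 and 6.18 in the CTCF D replicates, and 7.17 and 6.06 at CTCF-only distal sites. In CTCFL ID it was 7.91 and 6.37 at members with a peak, against 5.39 and 4.66 at CTCFL-only distal sites and 8.49 and 6.81 at shared promoter sites. Because lists differ in length and scale, strength was also given as the percentile among all peaks of a library, averaged over replicates. By this measure the median member stood at 70.3 for CTCF D and 71.8 for CTCFL ID, and at 66.9 and 67.3 in the CTCF ID and CTCFL D libraries that chose them.

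**Figure D1:**
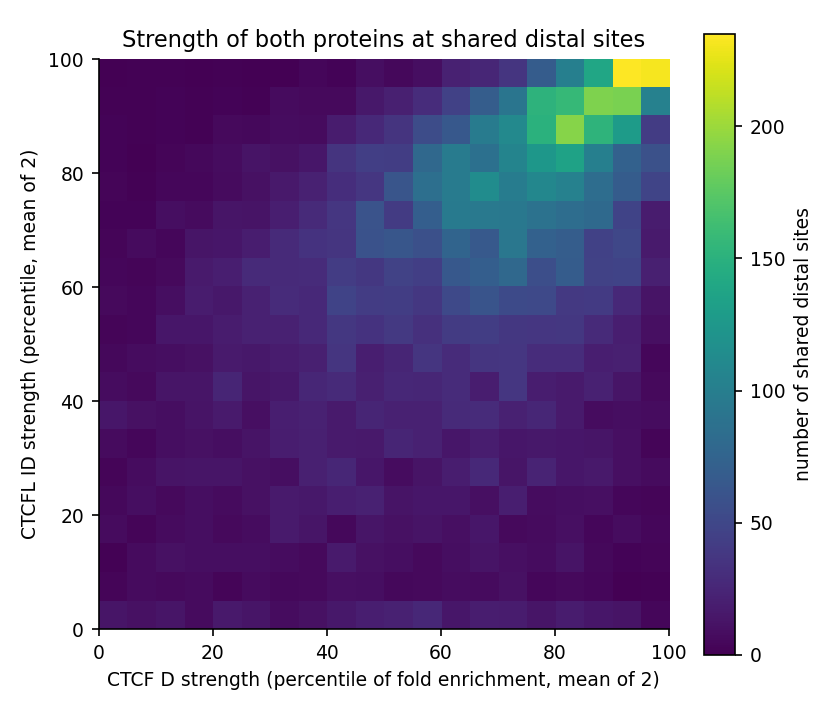
Number of shared distal sites by CTCF D strength (x axis) and CTCFL ID strength (y axis), each the mean percentile of fold enrichment over 2 replicates, in steps of 5 with 11444 sites in all. The densest squares lie at the upper right, where 758 members were in the top 10% for both proteins.

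The 2 strengths rose together only in part, as the plot of both strengths shows. Across members the rank correlation between CTCF D and CTCFL ID was 0.483, below the 0.661 and 0.856 between replicates of CTCF D and of CTCFL ID, over 11444 sites that share base composition and mappability. The 2 groups also differ in treatment, which cannot be told apart from the protein. Between CTCF ID and CTCFL D, with the treatments the other way round, the correlation was 0.395. There were 1577 members in the top 10% of CTCF D, 1978 in that of CTCFL ID, and 758 in both (6.62% of members). Summits of the proteins lay close together, with a median distance of 30 to 40 bp between CTCF D and CTCFL ID libraries, and of 41 and 37.0 bp between replicates of each. The distances between proteins and between replicates were thus of the same size.

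The 5 strongest members in the libraries outside the rule lay between genes or in introns. At the site near Gm49554 on chromosome 16 the fold enrichment was 21.6 and 15.5 in CTCF D and 18.3 and 16.6 in CTCFL ID. It was 13.2 and 12.4 in CLC ID and 16.1 and 15.2 in LCL ID. RAD21 had a peak there in 12 of 16 libraries, with 11.3 and 7.89 in CTCF D and 12.1 and 8.31 in CTCFL D. The Miga1 intron site, with 2 matches, had 15.6 and 10.7 in CTCF D and 16.7 and 11.8 in CTCFL ID, with RAD21 in 2 libraries. The Gm33838 intron site stood apart, because it had no match, lay in repeats over 69.4% of its length, and was called in all 16 RAD21 libraries, with 14.4 and 14.9 in RAD21 of CTCF D. FLAG enrichment there was 15.5 and 15.0 in CTCF D, 18.8 and 17.1 in CTCFL ID, 12.1 and 10.6 in mock-treated and 12.4 and 12.3 in RNase-treated CTCF cells. As the signal was similar for both antibodies and all treatments, and the median RAD21 peak at members in CTCF D had 4.31 and 4.44, the site is not read as strong binding of either protein. The Gm49554 site also had RAD21 well above these medians, so its FLAG strength is read with caution.

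The sites at the extremes of the rule's own difference are described without a test. At the Gm5979 site CTCFL D had 7.37 and 7.27 and CTCF ID 3.49 and 2.97, and in the other libraries CTCFL ID had 7.20 and 6.90 and CTCF D 5.40 and 3.63. At the Ebf1 site CTCF ID had 14.3 and 14.9 and CTCFL D 3.22 and 3.42, with CTCF D at 11.2 and 9.28 and CTCFL ID at 6.34 and 3.68. By percentile the Gm5979 site stood at 28.4 in CTCF D and 73.2 in CTCFL ID and the Ebf1 site at 95.3 and 38, the same order as in the libraries of the rule. CLC ID had no peak at the Ebf1 site and 5.67 and 6.91 at Gm5979, while LCL ID had 7.62 and 9.38 at Ebf1 and 3.03 and 2.83 at Gm5979. The chimera with the fingers of the stronger protein was thus the stronger of the pair at these 2 sites. Of the other 6 extremes, Aoc3, Pip5kl1 and Stc2 had this order in both replicates, Stc2 nearly level in replicate 2 (8.19 and 8.16 in LCL ID, 5.79 and 8.06 in CLC ID), Pacsin1 in replicate 2 alone (5.86 and 6.28 in CLC ID, 6.16 and 3.82 in LCL ID), and Gm12055 (4.90 and 5.28, 6.07 and 6.72) and Ptprt in neither. At the Ptprt intron, where CTCF ID had 13.9 in both replicates and CTCFL D 3.22 and 3.42, CLC ID had 6.29 and 8.24 and LCL ID no peak. RAD21 was called in 6 libraries at the Ebf1 site and in none of 16 at the Gm5979 site.

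Other members of this kind were the exon of the amine oxidase gene Aoc3, the intron of the endocytic adaptor gene Pacsin1 and the Gm12055 site on the CTCFL side. On the CTCF side they were the Stc2 site, 3551 bp from the start of a secreted glycoprotein gene, the Ptprt intron and an exon of Pip5kl1. RAD21 was called in 0, 1, 0 and 0 libraries at Aoc3, Pacsin1, Gm5979 and Gm12055, and in 3, 6, 2 and 5 at Stc2, Ebf1, Ptprt and Pip5kl1.

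Of 20 developmental, imprinted and study loci checked, 12 had members within 50 kb and 8 (Igf2, Hoxa9, Tsix, Xist, Myc, Meg3, Peg3 and Rasgrf1) had none. The windows of these 8 held 2, 6, 5, 5, 1, 2, 3 and 1 CTCF ID sites, and those of Tsix and Xist overlap. Among all CTCF ID sites 37.7% were members, so with so few sites the lack of members is not read as a property of these loci. Nanog, the pluripotency factor gene, had 4 members among 5 CTCF ID sites. The member 12551 bp from its start had 13.5 and 8.43 in CTCF D and 11.6 and 9.19 in CTCFL ID, with RAD21 in 8 libraries, and the one near Gm10420 had 13.6 and 7.69 and 12.6 and 9.28, with RAD21 in 11. Their percentiles were 97.3 and 97.0 for the former and 94.8 and 98.0 for the latter. The Dppa3 member of the same locus was weak for CTCFL ID, at 4.33 and 3.96, had no CLC ID peak, and had RAD21 in 3 libraries. Sox2 had 2 members in Sox2ot among 4 CTCF ID sites. The one at Gm42692 had 8.26 and 4.82 in CTCF D and 9.94 and 8.57 in CTCFL ID, with 1 RAD21 library.

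Prkcb, which codes for protein kinase C beta, had 7 members among 14 CTCF ID sites, in a window that is longer than that of the other loci because the gene itself is long. Their mean percentile in CTCF D and CTCFL ID ran from 13.5 to 94.1, and RAD21 was called in 0 to 7 libraries. Hoxb9, Hoxd13, Firre and Prdm14 had 2 members each, among 8, 8, 5 and 4 CTCF ID sites. H19, Epha4, Zkscan2, Hbb-bs and Kcnq1ot1 had 1 each, among 2, 2, 2, 2 and 1. At the 2 Hoxb members CTCF D was ranked above CTCFL ID, at 82.6 and 70.6 for the Gm11539 site and 79.5 and 68.8 for the Hoxb8 site, and RAD21 was called in 8 and 5 libraries.

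The chimera with CTCF fingers was found at most members in every library, while those with CTCFL fingers ranged widely. LCL, with CTCF fingers, was found at 89.1% and 95.4% of members in D and 94.0% and 93.4% in ID. CLC, with CTCFL fingers, was found at 30.9% and 46.7% in D and at 89.1% and 88.3% in ID. CLL stood at 2.50% and 36.2% in D and 65.7% and 90.1% in ID. LLC stood at 3.11% and 7.38% in D and 14.7% and 25.3% in ID. For CLC, CLL and LLC both ID libraries lay above both D libraries, and for LCL the ranges overlapped. All CTCF ID sites had the same order, so it is not particular to members. Over all sites CLC stood at 15.8% and 23.5% in D and 51.8% and 50.9% in ID. LCL stood at 72.4% and 83.9% and at 82.4% and 82.0%, CLL at 1.59% and 19.0% and at 33.8% and 51.9%. LLC stood at 2.03% and 4.83% and at 8.06% and 13.6%. The CLC lists were also shorter in D, with 9867 and 13583 peaks against 23899 and 21220 in ID.

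**Figure D2:**
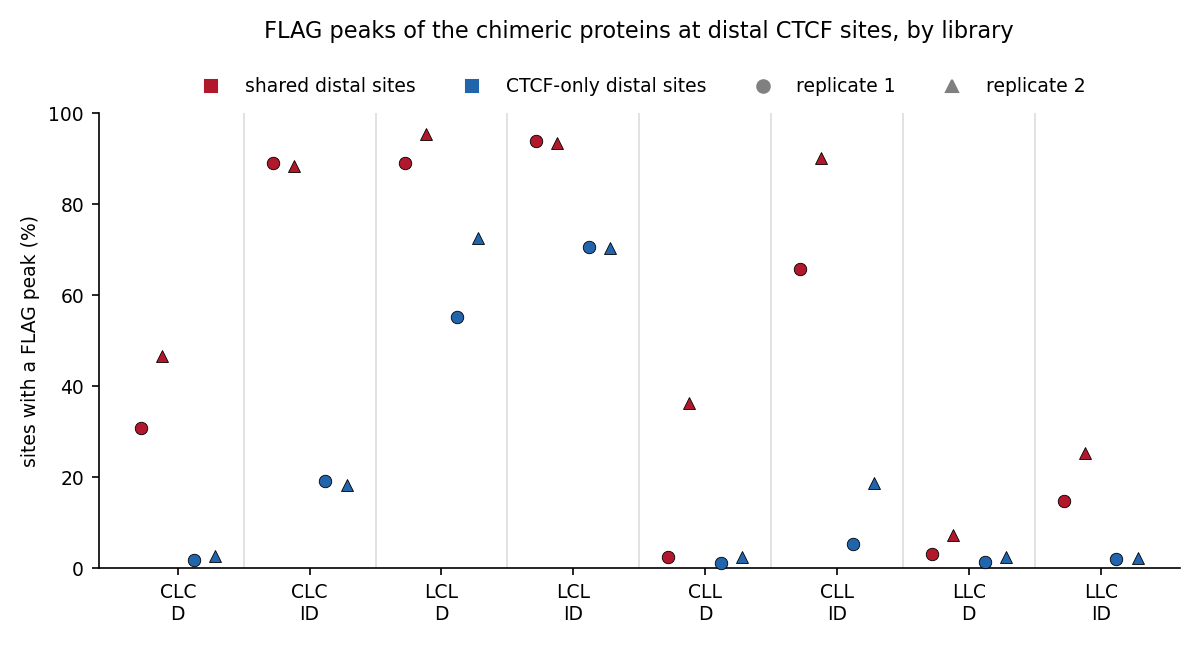
Percent of shared distal sites (red) and CTCF-only distal sites (blue) overlapped by a FLAG peak in each of the 16 chimera libraries, replicate 1 as circles and replicate 2 as triangles. In every library the red point is above the blue, with the widest gap in CLL ID replicate 2 (90.1% against 18.8%) and the narrowest in CLL D replicate 1 (2.50% against 1.03%).

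Chimera peaks were more frequent at members than at CTCF-only distal sites in every library, as the plot of chimera peaks shows. Shared promoter sites had mean shares close to or above those of members, such as 42.6% in CLC D, 89.0% in CLC ID and 98.3% in LCL ID. Frequent chimera peaks were thus not particular to the distal ones among shared sites. The difference averaged 32.9 percentage points over the 8 chimera and treatment means, was above 0 in 8 of 8, and had p = 0.00781 by a 2-sided exact sign-flip permutation test, the smallest that 8 values allow. It was 36.6 points in CLC D, where 38.8% ± 11.1 of members and 2.23% ± 0.612 of CTCF-only sites had a peak (SD, n = 2), and 70.0 points in CLC ID, with 88.7% ± 0.556 and 18.7% ± 0.684. For LCL the points were 28.4 in D and 23.3 in ID, with 93.7% ± 0.433 of members and 70.4% ± 0.158 of CTCF-only sites in ID. With only the 2189 highest peaks of each library, the number in the shortest list, the difference was 8.96 points with the same sign in all 8. The test measures the spread between conditions on 1 set of sites, not between sites. CLC, CLL and LLC carry the fingers of CTCFL, whose D sites told the 2 classes apart. Their differences thus largely repeat the choice, and the p-value is not independent support.

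In both replicates CLC ID had a peak at 85.6% of members and 47.8% of all CTCF ID sites, and LCL ID at 92.1% and 78.9%. At 9274 members (81.0%) both chimeras were found in both replicates, at 524 CLC ID alone, at 1270 LCL ID alone, and at 376 (3.29%) neither. Members with LCL ID alone, 11.1% of the total, thus outnumbered those with CLC ID alone. The LCL ID lists were also longer, with 41363 and 42362 peaks against 23899 and 21220. Among all CTCF ID sites the gap between LCL ID (78.9%) and CLC ID (47.8%) was wider than at members. Sites with LCL ID alone make up at least that gap, so they were less frequent among members than among all CTCF ID sites. The excess of LCL ID alone is thus not particular to members.

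Members were split into 3 parts of equal size by the percentile of CTCFL ID minus that of CTCF D, so that no chimera library was used for the split. CTCFL was read here without endogenous CTCF and transgenic CTCF beside it, so protein and treatment cannot be told apart in this difference. Its rank correlation with the rule's difference, CTCFL D minus CTCF ID, was 0.506. In the 3814 members with the lowest difference, where CTCF was stronger, CLC D had a peak at 8.57% and 20.8%, against 36.4% and 54.3% in the middle and 47.8% and 64.9% in the part where CTCFL was stronger. CLC ID had 76.8% and 74.1%, then 95.5% and 95.3%, then 95% and 95.6%. LCL ID showed no such order, with 92.3% and 92.4%, then 96.7% and 96.6%, then 93.1% and 91.3%. The median CTCFL ID percentile also moved over these parts, at 49.8, 81.6 and 79.2, and its part in the CLC values was not tested. The part with stronger CTCF had a motif match in 81.4% of sites and A at the third base in 83.7% of matches, and the part with stronger CTCFL had 77.4% and 73.3%.

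The mean share of members with RAD21 was higher in D cells, which kept endogenous CTCF, than in ID cells, but the replicates were far apart and the test could not call the difference. In CTCF D it stood at 58.2% and 15.3% of members, in CTCFL D at 56.0% and 0.743%, in CLC D at 3.30% and 18.8%, and in LCL D at 11.7% and 35.5%. In ID it stood at 12.9% and 4.19% with CTCF, 9.70% and 0.358% with CTCFL, 2.40% and 1.34% with CLC, and 11% and 0.306% with LCL. The libraries with the lowest shares were those with the fewest peaks, such as replicate 2 of LCL ID with 163 and of CTCFL ID with 181. The D and ID replicates overlapped in CTCFL and not in the other 3 lines.

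The mean was higher in D than in ID in 4 of 4 lines, by 19.7 points, with p = 0.125 by a 2-sided exact sign-flip permutation test, the smallest that 4 lines allow. Means were 36.8% ± 30.4 in CTCF D and 8.57% ± 6.19 in CTCF ID (SD, n = 2), so the difference was smaller than the SD between the D replicates. When each library was reduced to its 163 highest peaks the difference was 0.162 points, positive in 3 of 4 lines, with p = 0.25 by the same exact test. The ID libraries of the CTCF and CTCFL lines overlapped.

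**Figure D3:**
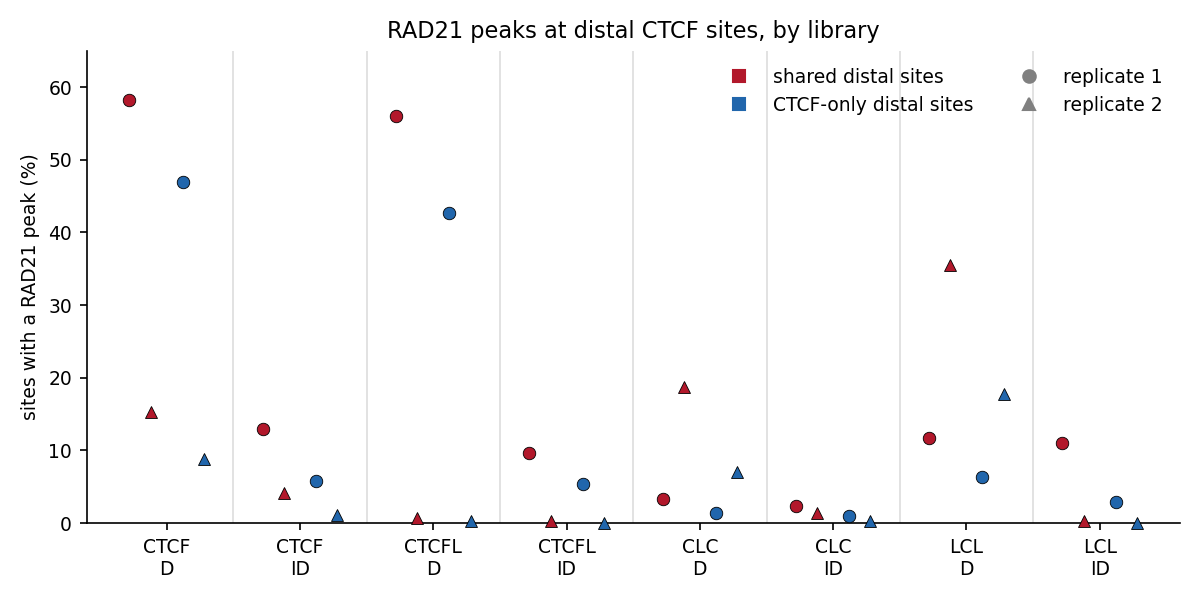
Percent of shared distal sites (red) and CTCF-only distal sites (blue) overlapped by a RAD21 peak in each of the 16 RAD21 libraries, replicate 1 as circles and replicate 2 as triangles. The red point is above the blue within each library, while the replicates of a group lie far apart, most of all in CTCFL D (56.0% and 0.743%).

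Within every RAD21 library the share was higher at members than at CTCF-only distal sites, as the plot of RAD21 peaks shows. The CTCF-only shares were 47.0% and 8.87% in CTCF D, 42.7% and 0.345% in CTCFL D, 5.79% and 1.10% in CTCF ID, and 5.43% and 0.0879% in CTCFL ID. Over the 8 line and treatment means the difference was 5.84 points, above 0 in 8 of 8, with p = 0.00781 by a 2-sided exact sign-flip permutation test, the smallest possible. In replicate 1 of CTCF D, 58.2% of members had a peak where 50.1% of all CTCF ID sites had one, and in at least 1 of the 16 libraries 70.0% of members had one where the background was 62.1%. No RAD21 library had a peak at 3431 members (30%), and 204 members (1.78%) had one in 10 or more.

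Both classes were set side by side in 5 bins of CTCF ID fold enrichment, a value of the rule, so the bins are a description. Members made up 28.7% of the distal CTCF sites in the weakest bin and 63.3% in the strongest. In replicate 1 of CTCF D, RAD21 stood at 35.6%, 34.7%, 52.5%, 63.0% and 80.2% of members from the weakest to the strongest bin, and at 27.3%, 35.3%, 49.7%, 65.1% and 79.3% of CTCF-only distal sites. Within these bins the mean difference over all libraries was 2.98 points, above 0 in 8 of 8. Members were also wider, with a median of 759.0 bp against 593.5 bp, and when only the middle of a site had to lie in the peak the difference was 4.10 points. With 163 peaks a library it was 0.372 points, which keeps the sign in 8 of 8.

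RAD21 shares also differed with the motif and with the difference between CTCFL ID and CTCF D strength within the members. In replicate 1 of CTCF D it stood at 46.9% of members without a match, 60.3% with 1 and 75.1% with 2 or more. The median CTCF D percentile was 62.8, 71.6 and 77.7 over the same members. In the 3 parts by CTCFL ID minus CTCF D it stood at 60.5% where CTCF was stronger, 65.2% in the middle and 49.0% where CTCFL was stronger, and in replicate 1 of CTCFL D at 54.9%, 63.5% and 49.6%. The median CTCF D percentile over these parts was 77.2, 79.2 and 53.9, and which of these values carried the RAD21 order was not tested.

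Treatment of permeabilised ID cells with RNase A before the FLAG ChIP asked whether binding needs RNA. At members, CTCF had a peak at 77.6% and 81.6% after mock treatment and at 72.7% and 35.7% after RNase. CTCFL had a peak at 21.0% and 44.9% after mock and at 41.8% and 10.9% after RNase. Both RNase libraries of CTCF lay below both mock libraries, whereas for CTCFL the groups overlapped.

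**Figure D4:**
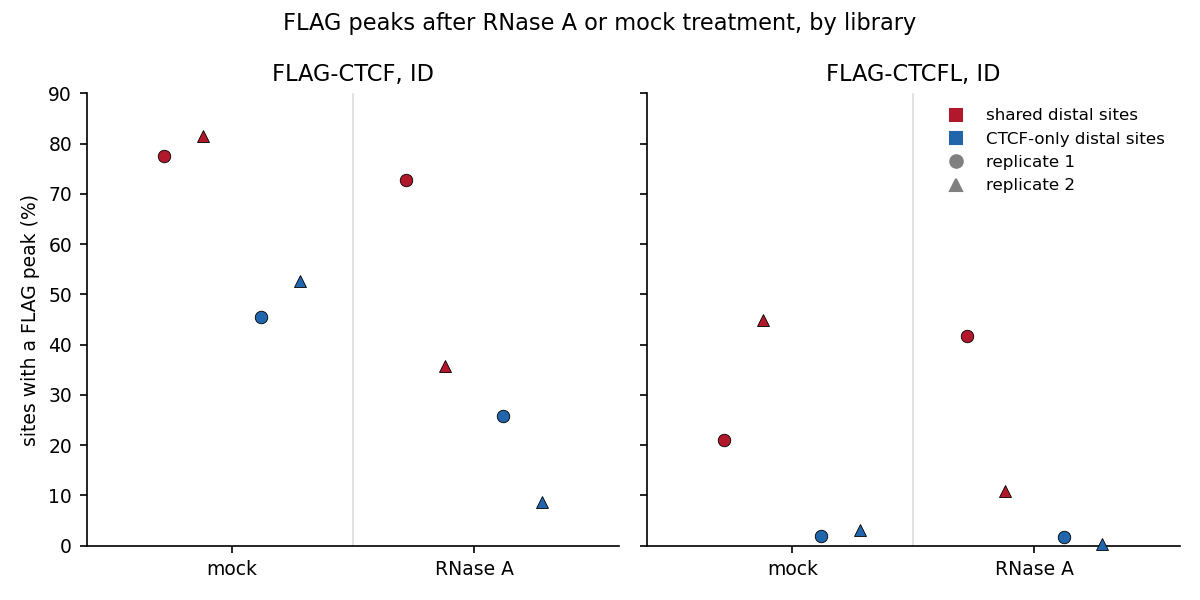
Percent of shared distal sites (red) and CTCF-only distal sites (blue) with a FLAG peak after mock or RNase A treatment of CTCF ID cells (left) and CTCFL ID cells (right), replicate 1 as circles and replicate 2 as triangles. The RNase replicates are far apart for both proteins, at 72.7% and 35.7% for CTCF and 41.8% and 10.9% for CTCFL.

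The mean change was −25.4 points for CTCF, with p = 0.333 by a 2-sided exact permutation test, and −6.61 points for CTCFL, with p = 0.667, in a design where the smallest p is 0.333. For CTCF the change was −4.91 points between the 2 libraries numbered 1 and −45.9 between those numbered 2, and for CTCFL it was 20.8 and −34.0, so the direction for CTCFL depended on the replicate. The RNase libraries numbered 2 were short, with 8584 CTCF and 2526 CTCFL peaks. When all libraries of a protein were reduced to that number, CTCF stood at 39.8% and 35.7% after RNase and 41.7% and 42.2% after mock, and CTCFL at 14% and 10.9% and at 9.45% and 13.2%. The mean change was then −4.19 points for CTCF and 1.09 for CTCFL.

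A CTCF peak was listed in both RNase replicates at 35.5% of members and 22.0% of all CTCF ID sites, and a CTCFL peak at 10.8% and 6.80%. These counts do not ask for a peak after mock, and many of all CTCF ID sites had no CTCFL in any case. CTCFL was listed in both mock replicates at 20.7% of members. CTCF-only distal sites had CTCF at 45.5% and 52.6% after mock and 25.9% and 8.74% after RNase. The loss in points was thus larger at CTCF-only distal sites, and the members minus CTCF-only difference went up by 6.31 points with RNase, with p = 1.00 by the exact permutation test. With 8584 peaks a library, CTCF-only distal sites had CTCF at 14.7% and 14.9% after mock and 7.65% and 8.74% after RNase. By strength, CTCF in RNase replicate 1 stood at 85.0% of the members above the 75th percentile of CTCF D and at 54.8% of those below the 25th, and mock replicate 1 had the same order, at 90.1% and 52.9%. CTCFL in RNase replicate 1 stood at 66.9% and 8.08% in the same ranges of CTCFL ID, and in mock replicate 1 at 34.2% and 5.80%.

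The Hi-C lists asked how far the members lay from domain boundaries. In CTCF U, 19.9% of members lay within 40 kb, 1 bin of the maps, of a domain edge of the crane list and 29.8% of the hicratio list, where all CTCF ID sites had 19.5% and 28.8% and 18.6% and 13.8% of the genome lay that near. The crane share at members was thus close to that of the genome. In the crane lists neighbouring domains were a median 280 kb apart and in the hicratio lists 40 kb apart. The position of a boundary within such a gap was not tested. When the middle of a site had to lie in such a gap, 53.3% of members did so in the crane list of CTCF U, where the gaps covered 36.9% of the genome and held 53.1% of all CTCF ID sites. In the hicratio list it was 11.6%, where gaps covered 4.59% of the genome and held 11.4% of all sites.

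**Figure D5:**
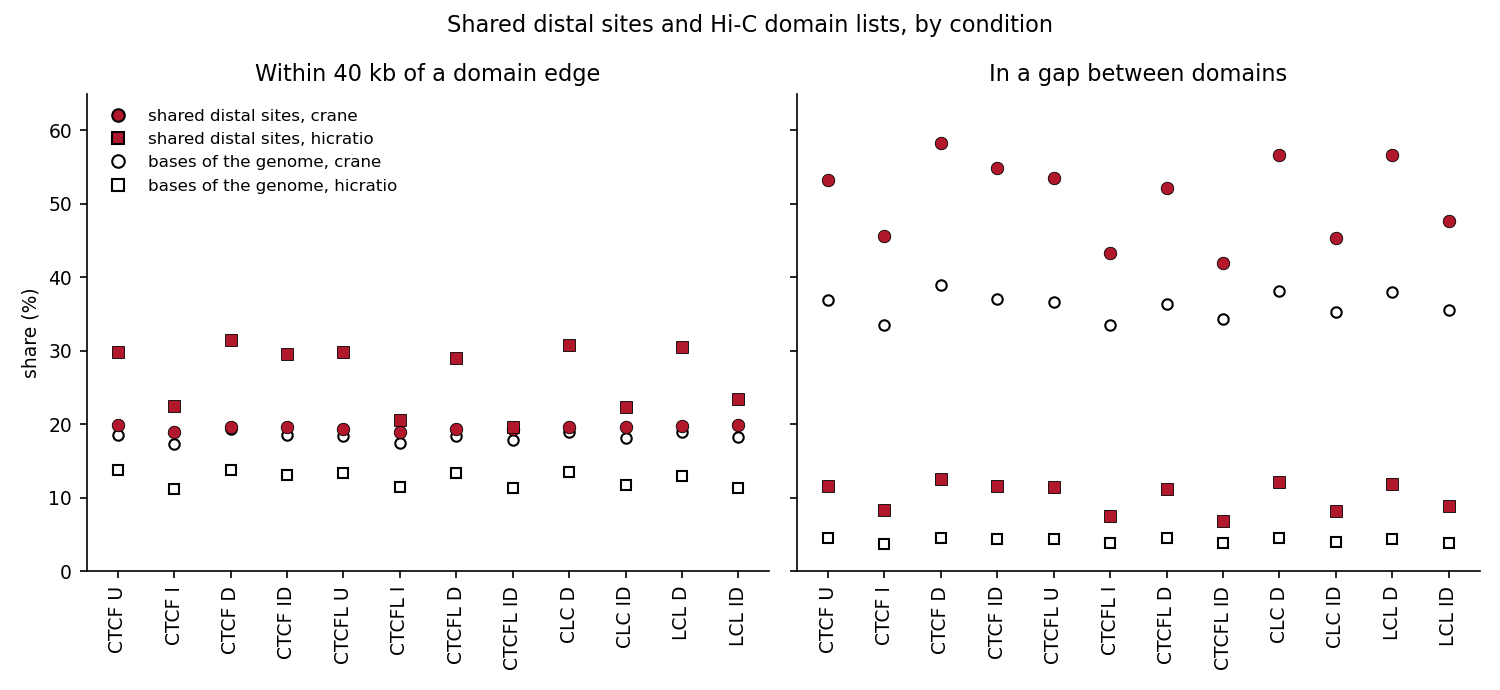
Percent of shared distal sites (filled) and of bases of the genome (open) within 40 kb of a domain edge (left) and in a gap between neighbouring domains (right), for the crane (circles) and hicratio (squares) lists of 12 Hi-C conditions. In the right panel both lists are lower in CTCF I, CTCFL I and CTCFL ID than in CTCF U and CTCF ID.

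Fewer members lay at listed boundaries in I than in U, and ID was close to U in the CTCF line and close to I in the CTCFL line. In the hicratio lists 29.8% of members lay within 40 kb of an edge in the untreated CTCF line, 22.5% with IAA, 31.5% with Dox and 29.5% with both. In the CTCFL line those 4 shares were 29.8%, 20.6%, 29% and 19.7%. All CTCF ID sites moved in nearly the same way, with 28.8%, 20.7%, 30.2% and 27.4% in the CTCF line and 28.3%, 19.4%, 28.2% and 18.9% in the CTCFL line, so these moves are not particular to the members. The part of the genome near a hicratio edge went from 13.8% in CTCF U to 11.2% in CTCF I. The CLC line had 30.8% in D and 22.3% in ID, and LCL 30.5% and 23.5%. The crane edges ran only from 18.9% to 19.9% over all 12 conditions. In the gaps both lists moved, with crane at 53.3%, 45.6%, 58.3% and 54.9% in the order untreated, IAA, Dox and both for the CTCF line and 53.5%, 43.3%, 52.1% and 42% for the CTCFL line. The part of the genome in crane gaps moved as well, from 33.5% in I to 39% in CTCF D, and with 1 list per method and condition these differences have no replicate check.

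Members lay near edges slightly more often than CTCF-only distal sites. The difference in the mean of both lists was 1.60 points over the 12 conditions, above 0 in 12 of 12, with p = 4.88e-04 by a 2-sided exact sign-flip permutation test, the smallest that 12 values allow, and the conditions share the same sites. The hicratio lists alone gave 3.22 points, while the crane edges gave −0.0204 points, above 0 in 5 of 12, with p = 0.829 by the same exact test. With gaps in place of edges the difference was 2.46 points in the crane lists and 1.03 in the hicratio lists, each above 0 in 12 of 12, a measure added after the data were seen. Edges listed by both methods, taken alone, gave 0.142 points, above 0 in 11 of 12.

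The choice of members had soft limits. The members nearest to the start limit lay 1004 bp from the starts of Gm25494, Rasl10a and Adgrb2 and 1007 bp from that of Lrp8, and shared sites just inside it lay 999 bp from Hhat and 997 bp from Cdk9. The members with the fewest shared bases, in introns of Spred2 and Mcf2l, overlapped a CTCFL D site by 5 bp, and the nearest distal CTCF site without overlap was 7 bp away. Only 4 members overlapped by under 10 bp, and the median member had 95.5% of its length covered.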

How the data were processed

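FLAG and RAD21 ChIP peaks, Hi-C domains and RNA levels of mouse embryonic stem cells were used. The authors aligned ChIP reads to GRCm38 with Bowtie2, discarded duplicates and ran MACS on single replicates (version not consistently given in the sources used here). The deposited peak lists give fold enrichment, a ratio over background, and −log10 q. Hi-C domains were deposited as 1 list per method and condition on 40 kb bins, and RNA as counts that the authors normalized with DESeq2 size factors (unit signal), used here for markers only. A site had a peak when at least 1 bp overlapped. Starts were 130588 positions of 53843 GENCODE genes. Shares of sites per group were compared with 2-sided exact permutation tests in Python 3.11.15 with numpy 2.4.6 and scipy 1.17.1, and the counting was tested on simulated data. The p-values measure the spread between these libraries, which may be technical. Members, loci and tests were chosen with earlier results of these data known. Named sites were the 5 strongest in CTCF D and CTCFL ID, the 4 at each extreme of CTCFL D minus CTCF ID, members within 50 kb of 20 listed loci, and those nearest to the limits.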

Additional observations from a re-analysis of the deposited data

Results flagged for a closer look

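The share of shared distal sites in a gap between neighbouring Hi-C domains moved in opposite directions from I to ID in the CTCF and CTCFL lines. In the crane lists it went from 45.6% to 54.9% with CTCF (9.30 points) and from 43.3% to 42% with CTCFL (−1.33 points), a difference of 10.6 points between the lines. In the hicratio lists it went from 8.41% to 11.6% with CTCF (3.23 points) and from 7.48% to 6.90% with CTCFL (−0.577 points), a difference of 3.81 points. The difference was not tested, since each condition has 1 list per method and both methods read the same maps. CTCF-only distal sites rose in both lines, by more in the CTCF line. For the CTCF and CTCFL lines they went from 42.1% to 50.8% and from 39.6% to 40.6% in the crane lists. In the hicratio lists they went from 6.59% to 10.2% and from 5.91% to 6.63%. The part of the genome in crane gaps also rose in both, from 33.5% to 37.0% and from 33.5% to 34.3%. Shared promoter sites did move in opposite directions, from 49.6% to 54.6% and from 45.9% to 44.1% in the crane lists. CTCFL-only distal sites did so as well, from 40.6% to 44.2% and from 37.0% to 36.7%. Both classes kept these directions in the hicratio lists. The opposite directions were thus not particular to the shared distal sites, but were not seen at CTCF-only distal sites. With distance to an edge in place of gaps the lines moved apart in the hicratio lists alone, by 6.96 and −0.874 points, while the crane lists gave 0.708 and 0.323. Groups of ChIP libraries had 2 replicates each, too few to look for a library that stands apart.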

How the results depend on the processing

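Of 92 alternatives 86 kept the direction and the side of the 0.05 threshold, or for counts stayed within 1.5 times. The 2 RNase results could not reach 0.05 in any setting, and RAD21 in D against ID only in the replicate block. The 11 alternatives kept by each of these results thus speak of direction alone. The number of shared distal sites was 17196 with replicate 1 alone, 11854 with replicate 2 alone and 8250 when more than 66% of both sites had to overlap. CTCFL after RNase reversed to 1.09 points with equal numbers of peaks, and ranged from −34.0 to 20.8 points when 1 replicate number was left out. CTCF after RNase kept its direction at −4.19 points with equal numbers of peaks. The mean members minus CTCF-only difference, another quantity, went up by 6.31 points with RNase, in a direction that depended on the replicate, while CTCF fell in mean share in both classes. Hi-C edges reversed to −0.0204 points in the crane lists alone. As a replicate block, RAD21 in D minus ID was 19.7 points with p = 0.00781 by an exact test over 8 pairs, but the deviations of same-numbered libraries correlated at 0.127, 0.286 and 0.199 in 3 lines and at −0.0249 in LCL, so the numbers were not taken to pair the samples. The crossed replicate block for CTCFL after RNase gave −6.61 points with p = 0.5 by the exact test, and the block changed no other call. Without the 5 RAD21 libraries under 1000 peaks, members exceeded CTCF-only distal sites by 7.67 points, and without the 2 chimera libraries under 5000 by 35.1. Peak lists without read numbers limit every share: a missing peak does not show that binding is absent.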

Other observations

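Motif strand near domain edges was not part of any comparison above. Of members with a match near the start of a hicratio domain, a median of 65.8% over the 12 conditions had the match on the plus strand, and near the end 31.6%. In the crane lists the medians were 59.7% and 36.8%. CTCF-only distal sites had 63.7% and 34.9%, and 60% and 36.2%, so both classes showed the same order of strands. These shares were not tested.

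Chromosome X held 135 members, and 23.7% of its distal CTCF sites were shared, against 38.3% on chromosome 13 to 49.3% on chromosome 11 among the autosomes. The density was 0.789 members per Mb on X and at most 7.90 on an autosome. The cells were XY, so X has 1 copy, and its part in peak calling was not tested. The 2 Firre members, in introns of this X-linked noncoding RNA gene, had no RAD21 peak in any library and no CLC ID peak.

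Another CTCF ID site lay within 10 kb of 41.7% of members and 36.5% of CTCF-only distal sites. Exons held 7.17% of members and 4.17% of CTCF-only distal sites, introns 47.2% and 47.8%.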
